A study of Oikopleura dioica with 14 samples.

Results

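The comparison set whole Oikopleura dioica animals mutant for Pax37b (genotype Pax37b-/-) against wild-type animals (Pax37b+/+) at 4 hours post fertilization (hpf), the earliest of the stages sampled. It holds 4 of the 14 libraries of the series, 2 mutant pools and 2 wild-type pools, and every one of the 17212 gene identifiers in the deposited table. Parents were heterozygous (Pax37b+/-), animals were collected and genotyped singly, and animals of one genotype were combined before polyadenylated RNA was extracted, per the labels' protocols. Both groups thus share the kind of cross, the rearing and the low-input library kit, and differ by genotype as far as the labels say. The labels number the pools as biological replicates but give neither the nature of the mutant allele, nor the animals per pool, nor whether each pool came from its own cross, so the p-values measure the spread between these pools.

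The species is a drifting tunicate housed in a secreted filter structure. A patterned epithelium on its trunk makes this house, and within it the Fol territory makes the food-concentrating filter. Pax3/7 proteins are transcription factors with a paired domain and a homeodomain that bind DNA and set cell fates. In vertebrates they are known for their roles at the border of the neural plate, in the neural crest and in muscle precursors. The comparison asks which genes depend on Pax37b, whose function the series title links with how the Fol territory arose.

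The files pair no identifier with a name, and 0 of the 17212 matched the 17178 genes of the reference table, so genes are given by identifier, no function is stated for any of them, and Pax37b itself was not analysed here as a check of the labels. Sequences of these genes were not used here for the same reason. The libraries were shallow, with 3941906 and 2973349 counts in mutant pools 1 and 2 and 2803712 and 3136801 in wild-type pools 1 and 2, against 10350791 to 15682947 counts in the 6 and 8 hpf libraries. Between 8987 and 9761 identifiers had any count in a library, and 3893 had none in any of the 4. Mutant pool 2 stood apart in the middle of the range, with 4760 identifiers at 10 counts or more against 6144 to 7030 in the other 3 libraries, and still 4716 against 6144 to 6988 after all were thinned to 2803712 counts.

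At 4 hpf 5 genes differed between genotypes beyond the spread of the pools, 2 higher and 3 lower in mutants. The 3 lower genes went from levels of 1462 to 3853 CPM in wild type (CPM being a count divided by its library's total and rescaled) to 1.01 to 3.36 CPM in mutants. The 2 higher genes already had 268 to 1304 CPM in wild type and reached 2893 to 7771 CPM in mutants. These 5 were 0.0721% of the 6933 genes that had enough counts for edgeR's quasi-likelihood test, with 0.0288% called higher and 0.0433% called lower at a Benjamini-Hochberg adjusted p under 0.05. In pooled whole animals, fewer cells of a type and less RNA per cell cannot be told apart.

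**Figure D1:**
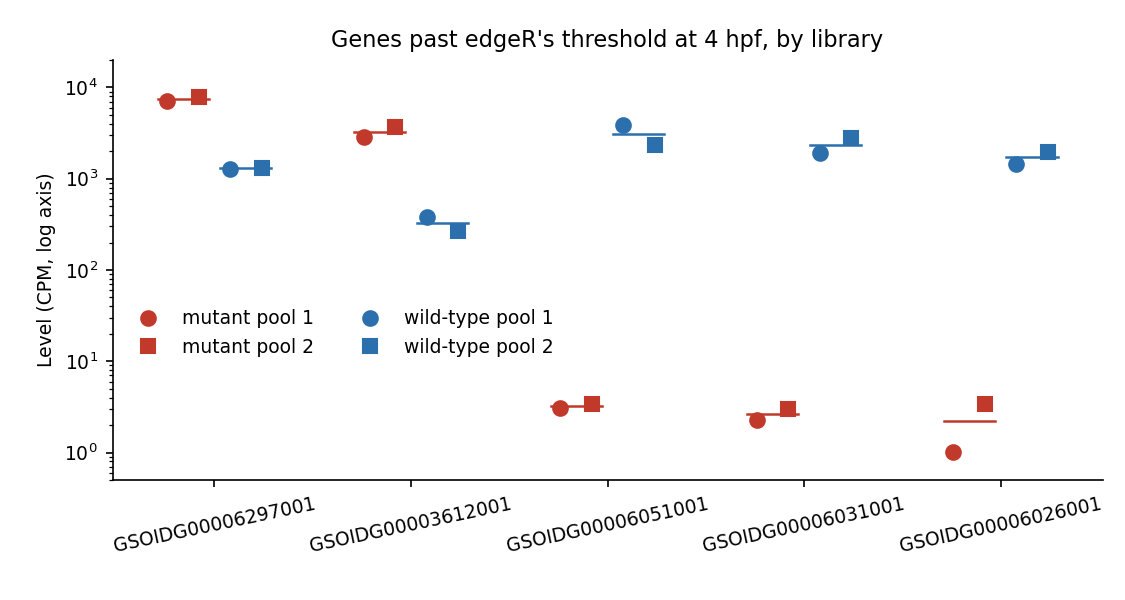
Level of the 5 genes that passed edgeR's threshold at 4 hpf in each of the 4 libraries, in CPM on a log axis. Points are single pools (circles pool 1, squares pool 2; red mutant, blue wild type) and lines are the means of each genotype. The 2 genes on the left are higher and the 3 on the right are lower in both mutant pools, with no overlap.

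GSOIDG00006051001, the gene with the smallest p, had 12 and 10 counts in the mutant pools and 10803 and 7314 in the wild-type pools. That is 3.04 and 3.36 CPM against 3853 and 2332 CPM. Both mutant values lie near the lower limit of what these libraries can count, and both wild-type values are far above them. The means were 3.20 ± 0.226 CPM (SD, n = 2) and 3092 ± 1076 CPM (SD, n = 2), a ratio of 965. The log2 fold change was -9.65 with a 95% interval from -10.65 to -8.66 (edgeR adjusted p = 0.00209). For each of the 3 lower genes the interval rests on 1 estimate of spread for both genotypes, although the mutant side is near the floor. Tested genes with a mean under 10 CPM differed between mutant pools by a median of 2.19 in log2 (after adding 1 CPM).

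GSOIDG00006031001 had 9 counts in each mutant pool, while the wild-type pools held 5344 and 8718. The levels were 2.28 and 3.03 CPM in mutants and 1906 and 2779 CPM in wild type, so the wild-type pools stood in the opposite order to that of the previous gene. Its log2 fold change was -9.52 with a 95% interval from -10.59 to -8.46 (edgeR adjusted p = 0.00209). The third lower gene, GSOIDG00006026001, named after its values were seen because it completes the set of calls, had 4 and 10 counts in mutants and 4100 and 6206 in wild type. Its log2 fold change was -9.35 with a 95% interval from -10.85 to -7.86 (edgeR adjusted p = 0.0168). None of the 3 was at 0 in a mutant pool at this stage, and each kept between 4 and 12 counts there.

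GSOIDG00006297001 rose in mutants from a high wild-type level. Its levels were 7175 and 7771 CPM in the mutant pools and 1287 and 1304 CPM in the wild-type pools, each supported by at least 3608 counts. The wild-type pools differed by less than the mutant pools, and the genotypes were well apart. The means of 7473 ± 422 CPM (SD, n = 2) and 1295 ± 12.03 CPM (SD, n = 2) stand in a ratio of 5.77, and the log2 fold change was 2.78 with a 95% interval from 2.17 to 3.39 (edgeR adjusted p = 0.0246).

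GSOIDG00003612001 also rose, from 379 and 268 CPM in wild type to 2893 and 3684 CPM in mutants. The counts behind these levels were 1063 and 840 in wild type and 11404 and 10954 in mutants. Its mean levels stood in a ratio of 10.2, and the log2 fold change was 3.60 with a 95% interval from 2.75 to 4.45 (edgeR adjusted p = 0.0403).

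The 5 calls rest on edgeR's estimate of the spread. All 5 stayed among the calls in each fit that left out 1 library, but those fits called 13 genes without mutant pool 1, 21 without mutant pool 2, 17 without wild-type pool 1 and 8 without wild-type pool 2, the lone pool being assumed to vary like the other genotype. With upper-quartile scaling the calls were 0 higher and the 3 lower genes. DESeq2 called 439 genes, the 3 lower genes among them but not the 2 higher ones (adjusted p = 0.213 for GSOIDG00006297001 and 0.0924 for GSOIDG00003612001, over 13 alternatives a range of 2.116e-21 to 0.789 and 2.575e-15 to 0.6872). limma-voom called the 2 named higher genes and 2 others, none of them lower in mutants, and left GSOIDG00006051001 at an adjusted p of 0.4377 (range 1.048e-53 to 0.4377).

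The next genes in order of p show how close the threshold lay. The sixth and seventh had log2 fold changes of 8.36 and -9.50 with edgeR adjusted p of 0.0679 and 0.0704. The eighth was lower in mutants with an adjusted p of 0.105, and the 2 after it, both higher in mutants, stood at 0.232.

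All 3 lower genes, and the seventh gene just described, belong to a stretch of 43 consecutive identifiers that earlier work on the same libraries had singled out as nearly empty in mutants, so their place in it is no independent result. At 4 hpf 6 and 11 of the 43 had any count in mutant pools 1 and 2, against 20 and 25 in wild-type pools 1 and 2. The summed level of the stretch was 15.5 and 65.9 CPM in mutants and 8350 and 8410 CPM in wild type. Outside it, 55.6% and 55.9% of identifiers had a count in the mutant pools and 52.2% and 56.7% in wild type, so the shares overlapped there.

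**Figure D2:**
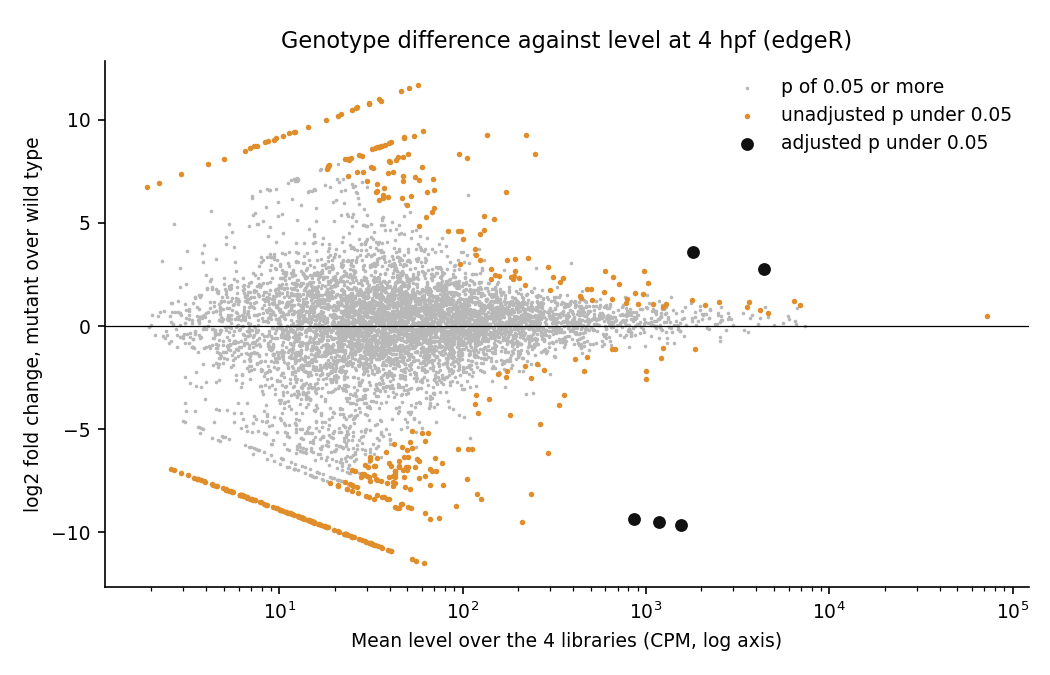
log2 fold change of mutant over wild type from edgeR against the mean level of each of the 6933 tested genes (CPM, log axis). Grey points have p of 0.05 or more, orange points an unadjusted p under 0.05 and black points an adjusted p under 0.05. The slanted orange lines at the left edge are genes with 0 counts in both libraries of a genotype, whose fitted fold change depends on the prior count. The 5 black points lie among genes of high level.

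Counting the 5 called genes, 160 genes were higher (2.31% of those tested) and 260 lower (3.75%) in mutants at an unadjusted p under 0.05. The direction of this surplus depended on the setting. Lower genes stayed in surplus with RLE factors (165 higher and 245 lower) and with upper-quartile factors (133 and 284). They also did with a minimum 1.5-fold change (139 and 251), DESeq2 (705 and 990) and limma-voom (215 and 353). In 1 fit of all 14 libraries the counts were 637 higher and 862 lower. The surplus was reversed without a low-count filter (256 higher and 200 lower) and at a mean of 5 CPM or more (226 and 167). It was also reversed with a block on replicate number (138 and 100) and with wild-type pool 1 or 2 left out. With mutant pool 1 or 2 left out, lower genes stayed in surplus. In the tested set of 6933 genes 126 genes had 0 counts in both mutant pools and 31 in both wild-type pools, and edgeR gave each of these 157 an unadjusted p under 0.05. Together they made 37.4% of the list of 420. The remaining genes were 129 higher and 134 lower in mutants.

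The genes without a count in one genotype were of modest level in the other. The 126 without counts in mutants had 5.15 to 123 CPM in wild type with a median of 25.4 CPM. Against a floor of 3 counts over both mutant pools, 0.434 CPM, the median gene was at least 58.5-fold lower in mutants. The 31 without counts in wild type had 3.79 to 114 CPM in mutants with a median of 24.2 CPM. Their median was at least 47.9-fold higher, against a floor of 0.505 CPM over both wild-type pools. These floors allow for counting error alone, since PCR copies without molecular tags do not count molecules. Both groups of genes passed the filter only through the genotype in which they had counts. Large bounds thus follow from the choice of genes, the smallest being 11.9-fold for the 126 and 7.51-fold for the 31.

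A broader count took in all-or-none differences. With absence set at 3 counts or fewer in a library and abundance at 100 counts or more, 116 identifiers (0.674% of all 17212) were absent from both mutant pools and abundant in both wild-type pools. The reverse held for 44 identifiers (0.256%). Of the 116, 22 had 0 counts in both mutant pools, and 6 lay in the stretch of consecutive identifiers. Their mean wild-type levels ran from 35.5 to 420 CPM with a median of 62.5 CPM. For the 44, the mean mutant levels ran from 36.0 to 271 CPM with a median of 71.3 CPM. edgeR called 0 of these 160 genes after adjustment. An unadjusted p under 0.05 was found for 85 of the 116 and 42 of the 44, beside 6.06% of all tested genes. DESeq2 had 149 of the 160 among its 439 calls, out of 7471 genes with an adjusted p. The 160 were chosen by counts in these same libraries, so small p-values follow from the choice and are no support.

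Pools of one genotype were also separated by such switches. Of the 4400 genes abundant in mutant pool 1, 1098 (25.0%) were absent from mutant pool 2, and of the 3316 abundant in pool 2, 459 (13.8%) were absent from pool 1. In wild type 524 of 3921 genes (13.4%) abundant in pool 1 were absent from pool 2, and 796 of 4272 (18.6%) the other way. Counted in the same way, 12.2% to 24.5% of the genes abundant in a pool were absent from a pool of the other genotype, a range that overlaps the 13.4% to 25.0% within genotypes. With 1 pool left out, the count absent from mutants was 356 and 198 without mutant pools 1 and 2 and 450 and 401 without wild-type pools 1 and 2. The count absent from wild type was 218 and 355 without the mutant pools and 107 and 207 without the wild-type pools. The excess of genes absent from mutants was reversed without mutant pool 2, the pool with the fewest identifiers at 10 counts or more.

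**Figure D3:**
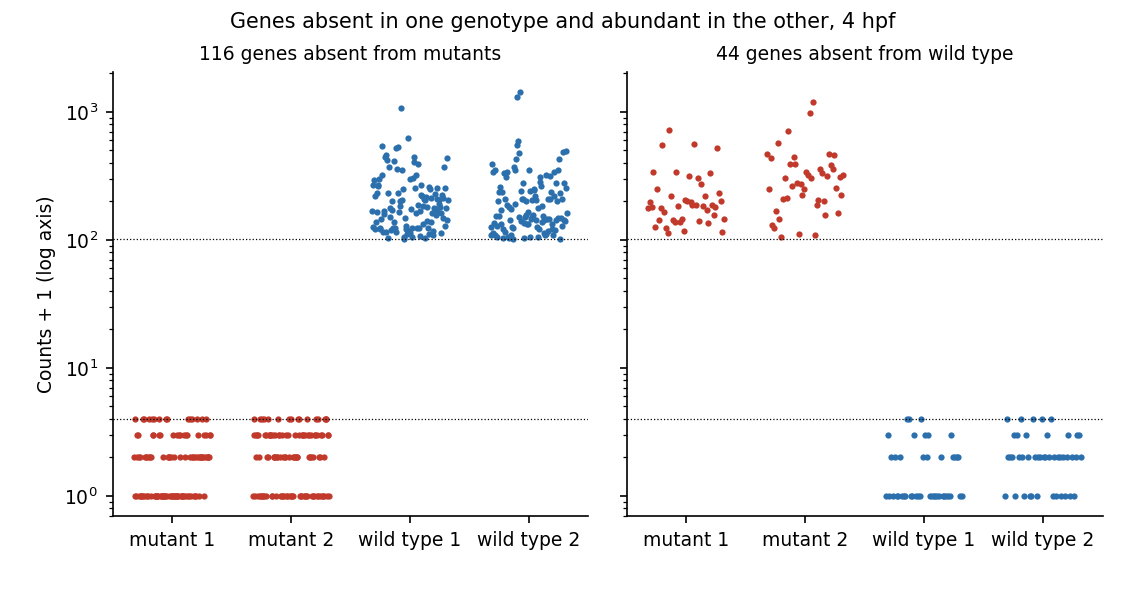
Counts plus 1 on a log axis in each library for the 116 genes absent from both mutant pools (left) and the 44 genes absent from both wild-type pools (right). Each point is a gene in a library (red mutant, blue wild type) and the dotted lines mark 3 and 100 counts. The genes were chosen by these counts, so the empty band between the lines follows from the choice.

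How far the genotypes could be told apart depended on the level of the gene. CPM here reflects how many reads a gene gave, not its level per length. At 10 to 30 CPM, 61.3% of 2026 tested genes differed at least 4-fold between the mutant pools (after adding 1 CPM), 55.9% between the wild-type pools, and 37.4% between the genotype means. At 300 to 1000 CPM these shares were 6.78%, 2.91% and 2.66% of 413 genes. At 1000 CPM or more, 2.04%, 2.04% and 4.08% of 147 genes differed this much. Only in this class was the share between genotype means above those between pools, and it includes the 4 called genes of this level. Means of 2 pools vary less than single pools, so the shares between means and between pools are not directly comparable.

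**Figure D4:**
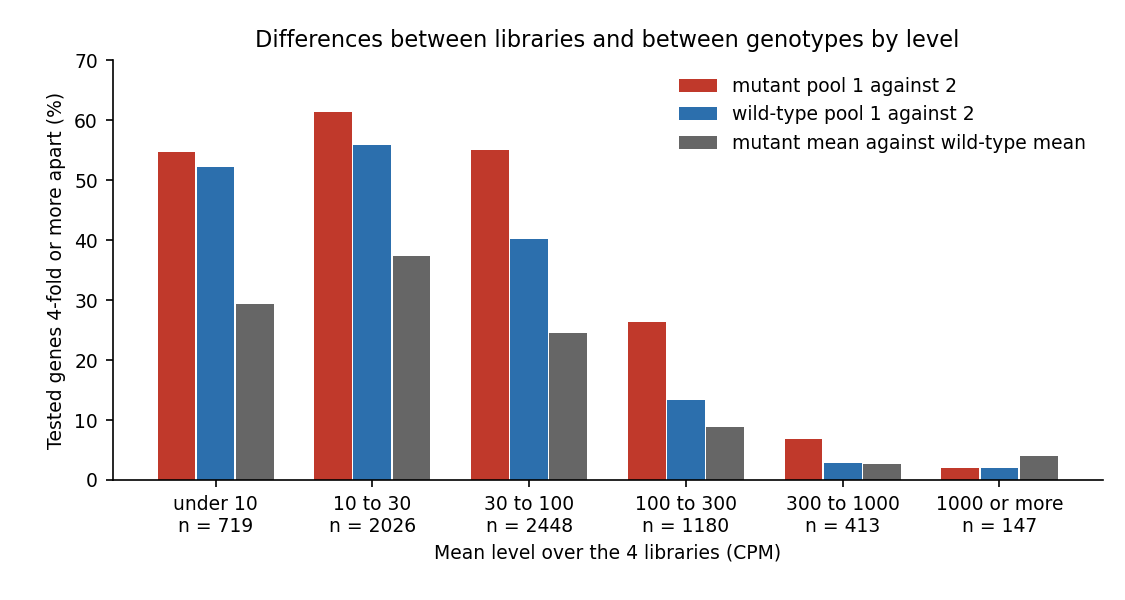
Share of tested genes at least 4-fold apart between the 2 mutant pools (red), between the 2 wild-type pools (blue) and between genotype means (grey), by mean level in CPM, with the number of genes under each class. The bars fall from 61.3%, 55.9% and 37.4% at 10 to 30 CPM to 2.04%, 2.04% and 4.08% at 1000 CPM or more. Grey bars compare means of 2 pools and the others single pools, so their heights are not directly comparable.

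The fitted intervals followed the same order. The median half-width of the 95% interval of a log2 fold change was 6.23 at 10 to 30 CPM, 2.37 at 100 to 300 CPM and 0.90 at 1000 CPM or more. Only 21 of the 6776 genes with an interval, all at 1000 CPM or more, had one that stayed within a 2-fold change in either direction, and 427 had one within 4-fold. For a gene with a wider interval a missing call does not show an equal level. The common biological coefficient of variation was 1.31.

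Pools of different genotype were about as alike as pools of the same genotype. Across the 6933 tested genes, which are not independent replicates, the rank correlation of levels was 0.482 between the mutant pools and 0.551 between the wild-type pools, against 0.448 to 0.559 for the 4 pairs of unlike genotype. The median absolute log2 difference was 1.85 between mutant pools, 1.35 between wild-type pools and 1.29 to 1.94 across genotypes. Of the genes tested, 13.0% lay higher and 22.0% lower in both mutant pools than in either wild-type pool. With 2 pools a side, such separation also arises without a genotype difference, and no expected share was computed. These shares used CPM without TMM factors, and the median log2 fold change was -0.17 in CPM means plus 1 and 0.06 with TMM. The balance of higher and lower genes thus depends on the scaling.

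Part of the transcriptome was steady in all 4 libraries. For 499 tested genes (7.20%) the highest of the 4 CPM values was at most 2-fold the lowest, and these genes took 35.7% to 38.4% of the counts of a library. Their median level was 264 CPM, against 41.0 CPM over all tested genes. The share of steady genes was 0.839% at 10 to 30 CPM, 37.8% at 300 to 1000 CPM and 55.1% at 1000 CPM or more. The identifier with the most counts gave 6.14% to 7.98% of each library. It stood at 77700 and 79800 CPM in the mutant pools and at 61400 and 71000 CPM in the wild-type pools, within 2-fold but without overlap. Its log2 fold change of 0.50 (edgeR unadjusted p = 0.0151, adjusted p = 0.777) is the smallest among the 14 higher genes of the next paragraph.

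Among the 147 genes at 1000 CPM or more, where the spread was smallest, 16 were higher and 7 lower in mutants at an unadjusted p under 0.05, 15.6% of the class beside 6.06% of all tested genes. The median log2 fold change of all 147 genes was 0.36, against 0.06 over all tested genes. How much of the surplus of higher genes follows from this offset was not tested. Of the 16 higher and 7 lower genes, 4 are called genes described above. The other 19 comprised 14 higher genes with log2 fold changes of 0.50 to 2.08 and 5 lower genes with -2.58 to -1.06, and their smallest edgeR adjusted p was 0.441. At 6 hpf 1 of the 14 lay above wild type in every library and 1 below, and at 8 hpf 2 lay above and 4 below. Of all tested genes with a positive fold change at 4 hpf, 6.59% lay above and 12% below at 6 hpf, and 29.3% above and 8.68% below at 8 hpf. Of the 5, 1 lay below wild type in every library and 0 above at 6 hpf, and 0 below and 2 above at 8 hpf. Of all tested genes with a negative fold change, 13.1% lay below and 6.00% above at 6 hpf, and 9.58% below and 29.2% above at 8 hpf.

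The 6 and 8 hpf libraries, 3 mutant and 2 wild-type pools each, share no library with the 4 hpf comparison and show whether its genes kept their side. Of the 420 genes with an unadjusted p under 0.05, 16.2% lay on the same side of wild type in every mutant library at 6 hpf, against 9.72% of all tested genes. At 8 hpf it was 20.7% against 19.8%. Among the lower genes 54 of 260 (20.8%) were again lower in every mutant library at 6 hpf, against 13.1% of all tested genes with a negative fold change at 4 hpf. Without the stretch of consecutive identifiers this was 46 of 250 (18.4%) against 12.8%. On the opposite side lay 13 of the 260 (5.0% against 6.00%). Of the 160 higher genes 14 (8.75% against 6.59%) were again higher at 6 hpf and 18 (11.2% against 12%) were lower in every mutant library. At 8 hpf 36 of the 260 (13.8% against 9.58%) were again lower and 71 (27.3% against 29.2%) were higher. Without the stretch 27 of 250 (10.8% against 9.31%) were again lower at 8 hpf. Of the 160 higher genes, 51 (31.9% against 29.3%) were again higher at 8 hpf and 15 (9.38% against 8.68%) were lower. These shares were not tested, since genes of a library are not independent.

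Few of the all-or-none genes met the same count limits later. In the deeper libraries of 6 and 8 hpf, 100 counts stand for 6.38 to 9.66 CPM, against 25.4 to 35.7 CPM at 4 hpf, so the limits mark different levels. Of the 116 absent from mutants at 4 hpf, 0 were at 3 counts or fewer in every mutant library and at 100 or more in every wild-type library at 6 hpf, and 1, which lies in the stretch, at 8 hpf. At 6 hpf 67 of the 116 reached 100 counts in at least 1 mutant library, and 10 reached it in all 3. At 8 hpf these numbers were 31 and 2. Of the 44 absent from wild type, 0 showed the same state at either later stage. At least 1 wild-type library reached 100 counts for 10 of the 44 at 6 hpf and 15 at 8 hpf. Every wild-type library did for 1 and 6 of them. Shares over all identifiers are not given for these limits, so the counts are a description only. By side alone, 23 of the 116 (19.8%) were lower in every mutant library at 6 hpf and 1 (0.862%) was higher, beside 13.1% and 6.00% of all tested genes with a negative fold change at 4 hpf. At 8 hpf 9 (7.76%) were lower and 39 (33.6%) higher, beside 9.58% and 29.2%. Without the stretch, 19 of 110 (17.3%) were lower at 6 hpf and 4 (3.64%) at 8 hpf, beside 12.8% and 9.31%. Of the 44, 1 (2.27%) lay above and 4 (9.09%) below all wild-type libraries at 6 hpf, beside 6.59% and 12% of all tested genes with a positive fold change. At 8 hpf 20 (45.5%) lay higher and 1 (2.27%) lower, beside 29.3% and 8.68%.

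All 3 lower genes had few or no counts in mutants later. GSOIDG00006051001 had 0 counts in the 3 mutant libraries at 6 hpf and 2, 1 and 3 at 8 hpf, against 5087 and 2227 and then 1884 and 4818 in wild type. GSOIDG00006031001 had 0 in the 3 mutant libraries at 6 hpf and 7, 1 and 16 at 8 hpf, against 2023 and 11217 and then 7564 and 354 in wild type. GSOIDG00006026001 had 1, 0 and 0 counts in mutants at 6 hpf and 3, 3 and 0 at 8 hpf, while wild type held 4551 and 41 and then 704 and 7753. The 41 counts are 2.92 CPM, below the 3.36 CPM of a mutant pool at 4 hpf, so this gene was low in 1 wild-type pool as well. Mutants and wild type did not overlap within a stage for any of the 3. In edgeR fits of the later libraries alone each of the 3 had an adjusted p of 0.661 at 6 hpf and 0.166 at 8 hpf and did not pass.

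The named higher genes parted ways after 6 hpf. GSOIDG00006297001 had 623, 2600 and 2271 CPM in the mutant libraries at 6 hpf against 196 and 305 CPM in wild type. At 8 hpf it had 1152, 743 and 1.19 CPM against 48.7 and 0.469 CPM, so the groups overlapped through mutant pool 3. That pool had 783 identifiers at 100 counts or more, against 1799 to 4466 in the other 8 hpf libraries. Its 100 most abundant identifiers took 53.4% of its counts, against 20.1% to 30.7% there. The 8 hpf shares over every mutant library also rest on this pool. GSOIDG00003612001 lay above wild type in mutants at 6 hpf, at 128, 710 and 1357 CPM against 4.86 and 36.1 CPM, and below it at 8 hpf, at 0.467, 0.966 and 0.456 CPM against 65.4 and 406 CPM. In the same edgeR fits neither gene passed, with adjusted p of 0.67 and 0.661 at 6 hpf and 0.407 and 0.166 at 8 hpf for GSOIDG00006297001 and GSOIDG00003612001.

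**Figure D5:**
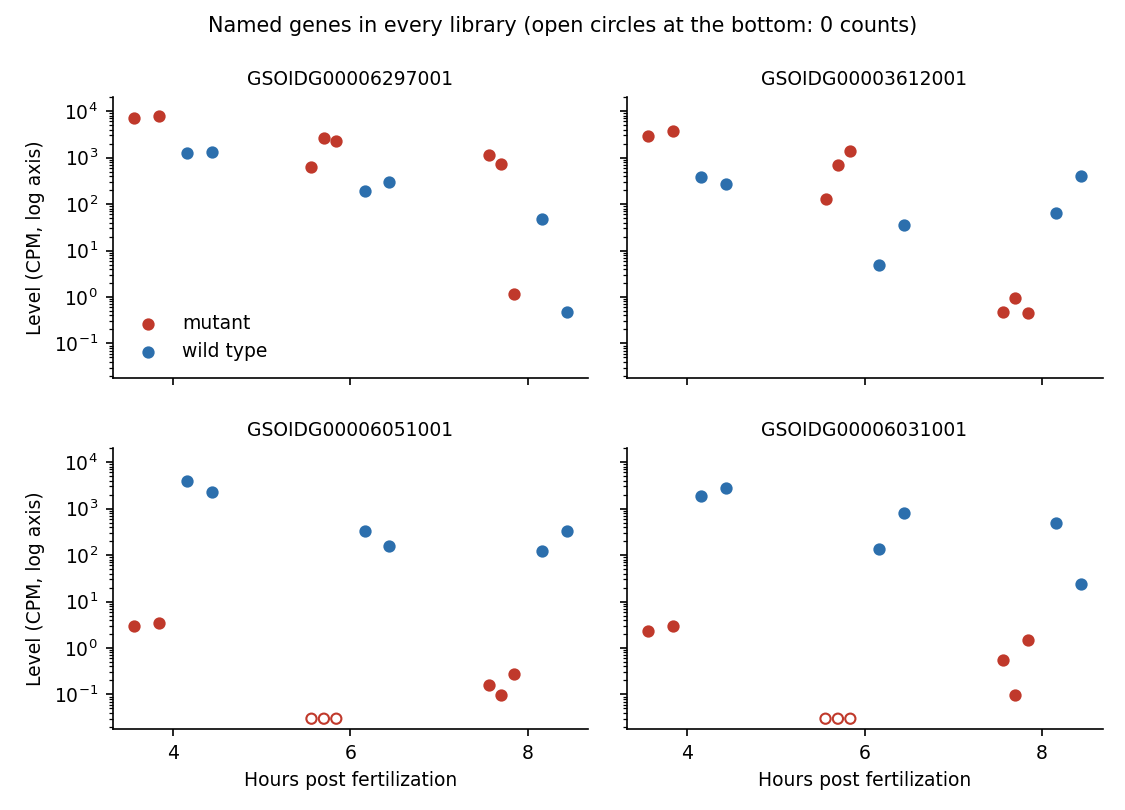
Level of the 4 named genes in all 14 libraries by hours post fertilization, in CPM on a log axis (red mutant, blue wild type; open circles at the bottom mark 0 counts). The lower pair stays apart at every stage, with mutants at 3.36 CPM or less, while GSOIDG00003612001 changes side at 8 hpf.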

How the data were processed

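Polyadenylated RNA of pooled whole animals went through a low-input kit, per the labels' protocols. The authors deposited estimated counts per identifier in a table for each stage, unscaled and unpooled. The submitters' processing notes name kallisto 0.46.0 and DESeq2, while index, annotation and filters are not given. kallisto shares reads among similar transcripts, so near-identical gene copies are uncertain. At 4 hpf 4.22% to 5.33% of values per library differed by over 0.01 from a whole number, and all were rounded. Samples were grouped by title. 1 column at 8 hpf has a number found in no title and served as an unnumbered wild-type replicate. No pair of 4 hpf libraries was a repeat (chi-square per degree of freedom 77.6 or more).

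The 4 libraries were fitted with edgeR 4.0.16 in R 4.3.3 (filterByExpr, TMM factors, quasi-likelihood F test, two-sided, Benjamini-Hochberg adjustment over all genes tested, threshold 0.05). Standard errors and 95% intervals used the fitted weights and moderated dispersion. The filter also keeps genes that are high in 1 genotype only. CPM used library totals without factors, and TMM moved the median log2 fold change to 0.06 from -0.17 in CPM means plus 1. Alternatives were other scaling (RLE, upper-quartile), DESeq2 1.42.0 on all identifiers (439 calls among 7471 adjusted p), limma-voom (limma 3.58.1), other filters, a minimum 1.5-fold change, a fit of all 14 libraries, a block on replicate number, and fits without each library. The fit was tested on simulated counts. Named identifiers were the 2 higher and 2 lower with the smallest p at a mean of 5 CPM or more and no overlap. Members, lists and rules were chosen with earlier results of these data known. Descriptions used Python 3.11.15, numpy 2.4.6 and pandas 2.3.3, and plots matplotlib 3.10.9.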

Additional observations from a re-analysis of the deposited data

Results flagged for a closer look

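GSOIDG00003612001 had all mutant libraries above wild type at 4 hpf and all below it at 8 hpf. The log2 fold change of mutant over wild type was lower at 8 than at 4 hpf by a difference of -13.08 (SE 3.17), which did not pass edgeR's interaction test over 12850 genes of the 14 libraries (adjusted p = 0.222, unadjusted p = 0.00231). That test called 0 genes, with 1964 at an unadjusted p under 0.05. Groups of 2 and 3 libraries were too small to be searched for outlying samples.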

How the results depend on the processing

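The 5 genes called by edgeR kept their direction in each of the 13 alternatives. These used the same 4 hpf libraries, in which the 5 genes had no overlap between genotypes, so the kept direction is no support. GSOIDG00006297001 passed in 10 of 13, GSOIDG00003612001 in 9, and each of the 3 lower genes in 11, with log2 fold changes of 2.61 to 2.90, 3.32 to 3.93, -10.01 to -9.20, -9.82 to -9.26 and -10.52 to -8.66. The number of calls was 3 with upper-quartile factors, 439 with DESeq2, 30 without a low-count filter, 14 at a mean of 5 CPM or more, 0 in 1 edgeR fit of all 14 libraries (1499 at an unadjusted p under 0.05) and 8 to 21 with 1 library left out. The filters and left-out libraries also changed the genes tested. The replicate block gave 19 calls, 9 higher and 10 lower, the 5 included. The labels do not say that numbers pair the pools, and over 2 pairs the deviations of same-numbered pools had a correlation of -0.031 across genes, so whether numbers pair the pools is not known. The 116 genes absent from mutants became 22 when absence meant 0 counts, 307 when abundance meant 30 counts and 198 to 450 with 1 library left out, and the 44 absent from wild type became 10, 99 and 107 to 355. Thinned to equal total counts they were 111 and 38. Without the stretch of identifiers they were 110 and 44. This alternative and the one without genes at 0 counts in a genotype were added after the data were seen. The shares on the same side at 6 and 8 hpf stayed within 14.6% to 16% and 17.1% to 22.4% in every alternative run. Under 1000 CPM no interval that could be computed stayed within a 2-fold change in either direction. For calls that changed with a setting other than the genes or libraries used, the cause was not tested.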
